A study of Rattus norvegicus with 18 samples.

Results

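Wnt signalling genes in the livers of rats with experimental NASH (non-alcoholic steatohepatitis, fatty liver with inflammation and scarring) are described here for 10 members, matched by gene symbol among the 32623 genes of each table. They are the ligands Wnt2, Wnt4, Wnt9b and Wnt11, the secreted agonist Rspo3, the receptors Fzd1, Fzd4 and Fzd7, and the co-receptors Lrp5 and Lrp6. Liver RNA of 18 male Wistar rats was sequenced, with 1 library per rat and 6 rats per group. Control rats received standard chow and plain water for 12 weeks. NASH rats inhaled the hepatotoxin CCl4 for 6 weeks with phenobarbital, an inducer of drug-metabolising enzymes, in their drinking water, and were then switched for 4 weeks to a diet rich in fat and cholesterol (HFCD). The NASH-CH group, the one with cirrhosis, had CCl4 and phenobarbital for 24 weeks, to which the HFCD was added for the last 16. The sample descriptions state only the combined treatment, of 10 and 24 weeks. Neither model group was matched to the controls in duration, no group received 1 agent alone, and the diet, CCl4 and phenobarbital cannot be told apart.

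Wnt proteins are lipid-modified ligands that bind a Frizzled receptor together with Lrp5 or Lrp6. The bound complex stops the destruction of beta-catenin, which then enters the nucleus and activates genes with factors of the TCF/LEF family. R-spondins such as Rspo3 raise the number of Frizzled receptors at the cell surface. In healthy liver, endothelial cells of the central vein and of the sinusoids are known sources of Wnt2, Wnt9b and Rspo3, and hepatocytes around the central vein respond with pericentral genes such as Glul and Cyp2e1.

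Each library held 19498534 to 27174015 expected counts in control, 20827770 to 29491947 in NASH and 44680344 to 60117822 in NASH-CH rats, so depth and group cannot be told apart for NASH-CH. Small non-coding RNA took 15.5 to 21.6% of the counts of control rats and 10.7 to 12.8% of those of NASH-CH rats. Levels are given as CPM, read counts put on a common library size and scaled by the TMM method of edgeR. CPM is not divided by gene length, so it is compared here between rats and not between genes. Fold changes, standard errors (SE) and 95% intervals are on the log2 scale and come from 1 limma-voom fit of all 18 livers and 12904 genes, with Benjamini-Hochberg adjustment over those genes. A gene is called where its adjusted p is under 0.05. Of the 10 members, 9 entered the fit, and Wnt11 did not reach its minimum count.

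In NASH against control rats, 0 of the 9 tested members were called (limma), where 3.12% of all tested genes were. Fzd1 alone had an unadjusted p under 0.05, as did 21.5% of all genes. In NASH-CH against control rats 1 of 9 was called, Wnt2, which was lower, where 17% of all tested genes were called, 8.38% higher and 8.6% lower. Wnt2 and Wnt4 had an unadjusted p under 0.05, as did 31.7% of all genes. In NASH-CH against NASH rats 0 of 9 were called, where 4.2% of all tested genes were, 1.81% higher and 2.39% lower. Wnt9b, Rspo3 and Fzd1 had an unadjusted p under 0.05, as did 17.5% of all genes. By DESeq2 the counts were 0, 3 and 2 in the same order, where 9.53%, 22.1% and 7.37% of all genes were called. By edgeR's quasi-likelihood test they were 0, 2 and 0, where 5.05%, 19% and 4.78% were. The members had a median log2 fold change of 0.16 in NASH and -0.14 in NASH-CH against control, where the median of all tested genes was 0.0072 and 0.013. Log2 fold changes were below 0 for 3 of 9 members in NASH and for 5 of 9 in NASH-CH. None of the 10 members had a model group wholly above or wholly below the control rats, where 1.77% of all tested genes were wholly above and 1.39% wholly below in NASH, and 3.64% and 3.46% in NASH-CH. Nor did NASH-CH and NASH rats part for any member, where 1.36% of all genes lay wholly above and 2.1% wholly below. Scaling by library size only, which moved the all-gene median to 0.23 (NASH) and 0.27 (NASH-CH), exchanged the 1 call in NASH-CH: Wnt2 lost it and Wnt4 gained it, as higher.

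**Figure D1:**
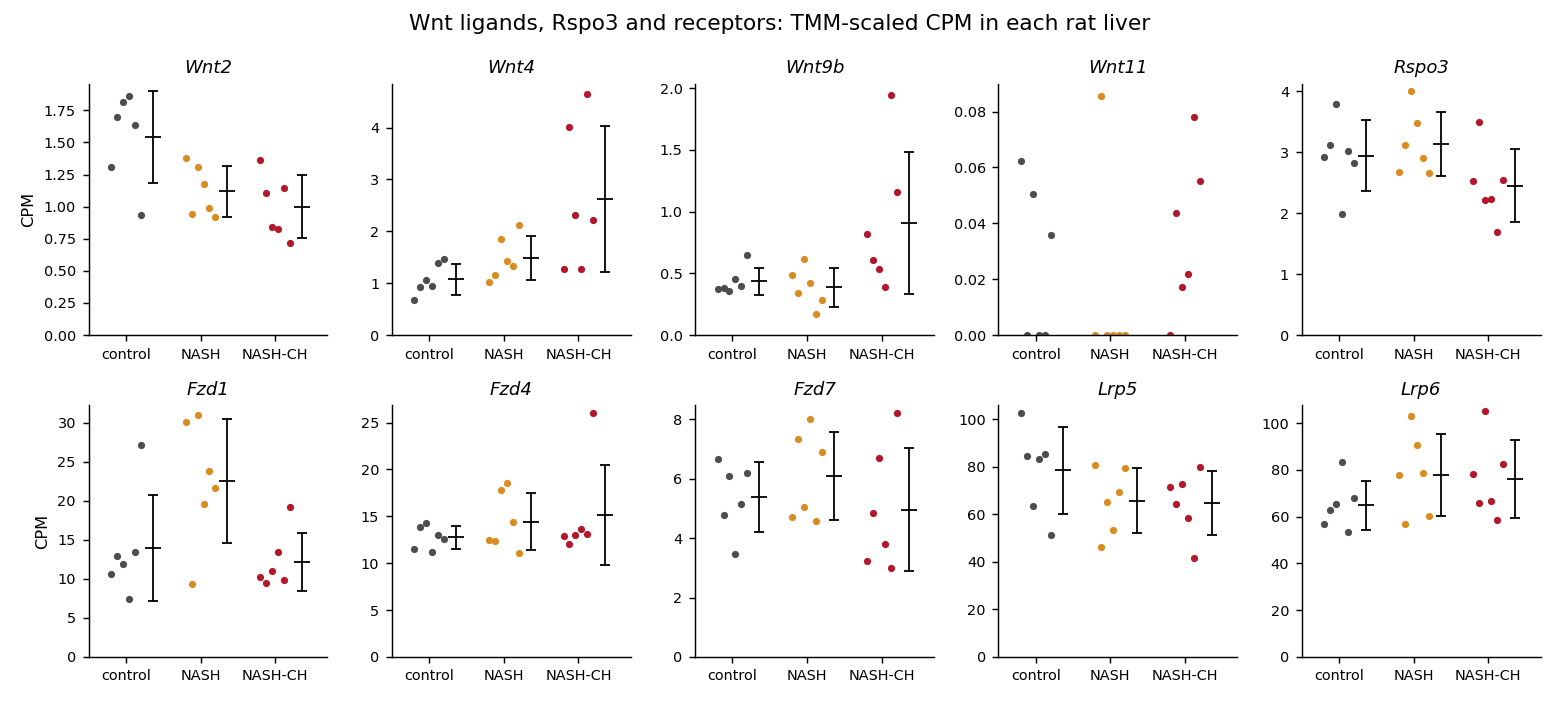
TMM-scaled CPM of the 10 members (vertical axes, each from 0) in every control, NASH and NASH-CH rat, with 1 point per rat and, except for Wnt11, a bar for the mean ± SD of 6 rats. Wnt2 is lowest in NASH-CH, Wnt4 and Wnt9b spread upward in NASH-CH, Fzd1 is high in 5 of 6 NASH rats, and for the other receptors the groups lie over each other.

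Wnt2, the endothelial ligand, was the 1 member called. Its level in control rats had a lowest value of 0.932, a median of 1.67 and a highest value of 1.86 CPM. NASH rats ranged from 0.916 to 1.38 CPM with a median of 1.08, and NASH-CH rats from 0.718 to 1.36 CPM with a median of 0.976. All 6 rats of each model lay under the control median, and 1 NASH and 3 NASH-CH rats lay below every control rat, since control rat 6 was itself low. Wnt2 fell by 0.61 in NASH-CH (SE 0.20, 95% interval -1.02 to -0.20, adjusted p = 0.0403, limma), from 1.54 ± 0.357 to 1.00 ± 0.243 CPM (mean ± SD, n = 6). In NASH its log2 fold change was -0.44 (SE 0.22, 95% interval -0.90 to 0.023, adjusted p = 0.255, limma), and NASH-CH and NASH rats differed by -0.17 (adjusted p = 0.724, limma). These levels rest on 21 to 88 counts per rat. Leaving out 1 rat at a time lost the call in 8 of 12 fits (control rats 1 to 5 and NASH-CH rats 3, 4 and 6, with -0.64 to -0.52 and adjusted p up to 0.101, limma), and without control rat 6 the log2 fold change was -0.78 (adjusted p = 0.00768, limma).

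The 3 tested genes most like Wnt2 in log2 CPM over the 18 rats were Ctss, the protease cathepsin S, with Pearson's r = 0.83, C1qc, a chain of complement C1q, with 0.83, and Naa20, a subunit of an N-terminal acetyltransferase, with 0.81. Within groups these values were 0.72, 0.71 and 0.67. The rats share their groups and scaling factors, so these are descriptions over 18 libraries. Of 7 macrophage markers, 5 were called lower in NASH-CH (limma; 71.4%, where 17% of all genes were called), Marco, Csf1r, Cd163, Clec4f and Vsig4, and their summed level was 212 to 401 CPM in control, 165 to 244 in NASH and 141 to 215 in NASH-CH rats. Among 13 endothelial markers, 0 were called lower and 2 higher in NASH-CH, Vwf and Cd34 (15.4%), and the sum was 366 to 484 CPM in control, 452 to 504 in NASH and 285 to 465 in NASH-CH rats. Log2 fold changes of NASH-CH rats were below 0 for 7 of the 13 against control and for 11 against NASH. Against NASH, 1 of these was called lower and 0 higher (7.69%, where 4.2% of all genes were called). None of these markers had a mean of 0 CPM in any group, and the part of these cells in the level of Wnt2 was not tested. In bulk liver RNA, fewer cells of a type and less RNA per cell cannot be told apart. By staining of liver sections, the study reports more CD68-positive and CD163-positive macrophages in NASH-CH than in control rats, and no significant change in NASH. For the endothelium it reports less CD32b and more von Willebrand factor, the protein of Vwf, in both models.

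The 250 bases before the start of Wnt2 are shown because it was the 1 member called, and they were searched for CTTTGA and CTTTGAT, 2 forms of the core bound by TCF/LEF factors, on both strands. Every CTTTGAT is also a CTTTGA. RefSeq promoters of the GRCr8 assembly, another build than the Rnor_6.0 of the counts, were matched for 8 of the 10 members, and not for Lrp5 and Lrp6. Neither form was found before Wnt2 (chr4:47340285-47340534, minus strand), whose window is 70.4% G and C. Among the 8 members 1 held CTTTGA, Fzd7, and 0 held CTTTGAT, while 13.8% and 3.18% of all 27457 promoters of this length did. No match says only that these letters are not in the window.
Wnt2: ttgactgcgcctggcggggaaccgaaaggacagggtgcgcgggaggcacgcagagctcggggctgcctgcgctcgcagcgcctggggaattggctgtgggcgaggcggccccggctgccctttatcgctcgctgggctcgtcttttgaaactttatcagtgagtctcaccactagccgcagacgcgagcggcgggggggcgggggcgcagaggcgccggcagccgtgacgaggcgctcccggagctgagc

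Wnt4, a ligand best known from kidney and gonad development, missed the threshold of the limma-voom fit in NASH-CH rats and passed it in 6 of 10 alternatives to that fit. Control rats ranged from 0.686 to 1.47 CPM with a median of 1.01, and NASH rats from 1.03 to 2.12 with a median of 1.38. The NASH-CH rats ranged from 1.27 to 4.65 CPM with a median of 2.27. Only 4 of 6 NASH-CH rats exceeded the highest control, with rats 5 and 2 far above the rest and rats 1 and 4 inside the control range. The log2 fold change was 1.14 in NASH-CH (SE 0.39, 95% interval 0.32 to 1.97, adjusted p = 0.0532, limma) and 0.45 in NASH (SE 0.45, 95% interval -0.50 to 1.39, adjusted p = 0.606, limma). It was 1.27 in NASH-CH by edgeR's quasi-likelihood test (adjusted p = 0.00927) and 1.27 by DESeq2 (adjusted p = 0.00141), and over all alternatives but leaving out a rat the adjusted p ran from 0.00141 to 0.107.

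Wnt9b, the other endothelial ligand, was spread most widely in NASH-CH. It was counted 5 to 18 times per rat in control and NASH livers and 18 to 150 times in the deeper NASH-CH libraries. Control rats lay between 0.353 and 0.645 CPM with a median of 0.391, NASH rats between 0.171 and 0.617 with a median of 0.381, and NASH-CH rats between 0.393 and 1.95 with a median of 0.715. The NASH-CH rats overlapped both other groups, and 3 of them exceeded the highest control. The log2 fold change against control was 0.89 (SE 0.43, 95% interval -0.0025 to 1.78, adjusted p = 0.159, limma), and without NASH-CH rat 5 it was 0.56. Against NASH it was 1.19 (SE 0.43, adjusted p = 0.136, limma). DESeq2 called Wnt9b higher in both comparisons, by 1.06 against control (adjusted p = 0.0451) and by 1.26 against NASH (adjusted p = 0.0332). NASH-CH rat 5 had the highest Wnt4 and Wnt9b of all 18 rats, and it stood at 57.7 CPM for 7 cholangiocyte markers, where the other NASH-CH rats had at most 27.5 and the control rats 12.3 to 16.3. The part of bile duct cells in these levels was not tested.

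Wnt11, a ligand of beta-catenin-independent signalling, was near the detection limit in every group. It had 0 to 1 counts in control, 0 to 2 in NASH and 0 to 6 in NASH-CH rats, and 3, 5 and 1 rats of these groups had no count. A count of 0 allows up to 3 counts, or 0.108 to 0.187 CPM in control and 0.0390 to 0.0655 CPM in NASH-CH libraries, in terms of counting error only. A difference was not detectable at this depth (two-sided exact permutation test of log2 CPM, p = 0.468 for NASH-CH and p = 0.545 for NASH against control). Of the 19 other Wnt ligands and R-spondins, 0 passed the filter on low counts. Of these, Wnt5a had the highest count, 64 in 1 NASH-CH rat, against at most 6 in control and 9 in NASH rats, and it is named after its values were seen. The NASH-CH libraries were deeper, and in CPM its highest values were 0.831 in NASH-CH, 0.303 in control and 0.401 in NASH rats.

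Rspo3, the R-spondin of the central vein, did not pass in any comparison. Its values were 1.98 to 3.79 CPM in control rats (median 2.98), 2.65 to 4.01 in NASH (median 3.02) and 1.69 to 3.50 in NASH-CH rats (median 2.37). The log2 fold change was 0.11 in NASH (95% interval -0.29 to 0.50, adjusted p = 0.789, limma) and -0.30 in NASH-CH (95% interval -0.67 to 0.075, adjusted p = 0.263, limma). Against NASH rats the NASH-CH rats differed by -0.40 (SE 0.17, adjusted p = 0.209, limma), and 5 of 6 lay below every NASH rat. These differences did not pass, and the intervals leave room for a fall of up to 0.67 in NASH-CH.

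**Figure D2:**
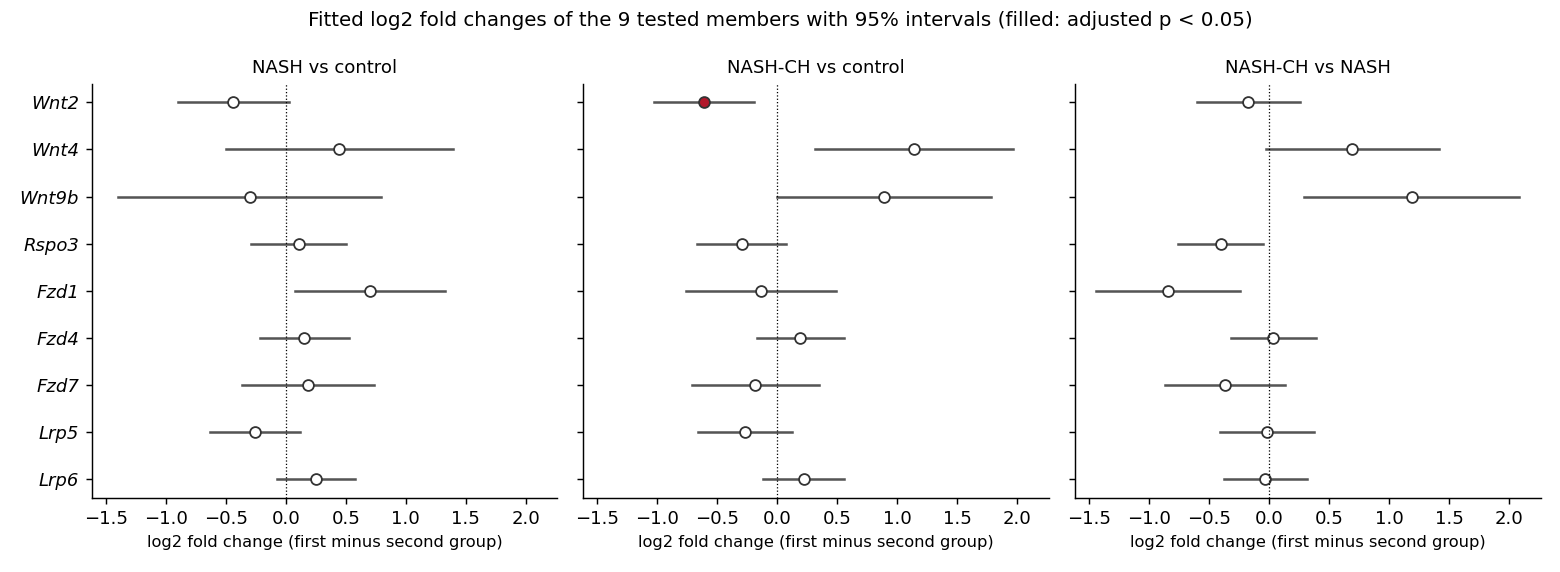
Log2 fold changes (horizontal axes) of the 9 tested members in the 3 comparisons, with 95% intervals from the limma-voom fit of 18 rats and filled points for an adjusted p under 0.05. Wnt2 in NASH-CH against control, at -0.61, is the 1 filled point, and the intervals of Wnt4 and Wnt9b are the widest.

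Fzd1, a receptor of beta-catenin signalling, did not pass in any comparison of the limma-voom fit. It ranged from 7.48 to 27.1 CPM in control rats with a median of 12.5, from 9.34 to 31.0 in NASH with a median of 22.7, and from 9.42 to 19.2 in NASH-CH with a median of 10.6. In 5 of 6 NASH rats Fzd1 lay above the 5 control rats other than rat 6, and NASH rat 2 lay with the controls. The log2 fold change was 0.70 in NASH (SE 0.30, 95% interval 0.076 to 1.33, adjusted p = 0.181, limma), and without control rat 6 it was 0.94 (adjusted p = 0.0496, limma). Between NASH-CH and NASH rats it was -0.84 (SE 0.29, adjusted p = 0.114, limma), and without NASH rat 2 it was -1.07 (adjusted p = 0.0189, limma). DESeq2 called this difference with all rats, at -0.90 (adjusted p = 0.0346). Fzd1 in NASH-CH against control differed by -0.14 (adjusted p = 0.783, limma), a sign that turned with library size only and without control rat 6.

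Fzd4, a receptor of blood vessels that also binds norrin, was the most even member among controls, at 11.2 to 14.3 CPM with a median of 12.8. NASH rats had 11.1 to 18.5 CPM (median 13.4), and 3 of them lay above every control rat. NASH-CH rats had 12.1 to 26.0 CPM (median 13.1), of which only rat 6 lay above the controls, and without it the log2 fold change went from 0.19 to 0.028. Fzd7, a close relative of Fzd1, had group medians of 5.63 (control), 5.97 (NASH) and 4.32 CPM (NASH-CH), and its log2 fold changes of 0.18 and -0.18 did not pass (adjusted p = 0.732 and 0.653, limma). Fzd7 was the 1 member with CTTTGA before its start, once on each strand, in the stretch of chr9:68425288-68425347, plus strand (GRCr8), where capitals mark the motif.
Fzd7: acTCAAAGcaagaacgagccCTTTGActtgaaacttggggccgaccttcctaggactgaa

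Both co-receptors were counted at least 910 times in every rat, and neither passed. Lrp5 had group medians of 84.0 (control), 67.2 (NASH) and 67.8 CPM (NASH-CH), and Lrp6 medians of 64.2, 78.3 and 72.5 CPM. All 6 rats of each model lay below the control median for Lrp5, while control rats 3 and 6, at 63.4 and 51.2 CPM, lay among them. The log2 fold changes of Lrp5 were -0.26 in NASH (95% interval -0.63 to 0.12, adjusted p = 0.424, limma) and -0.27 in NASH-CH (95% interval -0.66 to 0.12, adjusted p = 0.333, limma). Those of Lrp6 were 0.25 (95% interval -0.072 to 0.57, adjusted p = 0.362, limma) and 0.22 (95% interval -0.12 to 0.56, adjusted p = 0.361, limma).

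Outside the members, 37 of 71 other Wnt pathway genes were tested, of which 1 was called in NASH and 9 in NASH-CH, with 8 higher against 1 lower. That is 2.7% in NASH, where 3.12% of all genes were called, and 24.3% in NASH-CH, where 17% were. With library size only, 16 were higher and 0 lower in NASH-CH (43.2%, where 25.3% of all genes were called). The median log2 fold change of the 37 genes was 0.19 in NASH and 0.33 in NASH-CH. No test compares these lists with other genes.

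Inhibitors that act at the cell surface held 4 of the 9 calls in NASH-CH, with 3 higher and 1 lower of 9 tested (44.4%, where 17% of all genes were called). Sfrp1, a decoy that binds Wnt ligands, ranged over 0.193 to 1.56 CPM among control rats (median 0.860), 0.728 to 1.95 in NASH (median 0.995) and 1.59 to 6.38 in NASH-CH rats (median 3.07). No NASH-CH rat overlapped the controls, where 3.64% of all tested genes lay wholly above them. The log2 fold change of Sfrp1 was 2.00 (SE 0.49, adjusted p = 0.0104, limma). Dkk3, a divergent dickkopf protein, was even in control rats, at 1.11 to 1.54 CPM (median 1.20), ranged from 0.814 to 1.99 in NASH (median 1.16) and reached 2.00 to 7.71 CPM in NASH-CH (median 2.83). Its NASH-CH rats lay above every control and every NASH rat, as did 3.64% of all tested genes against control and 1.36% against NASH. The log2 fold changes of Dkk3 were 1.39 (SE 0.37, adjusted p = 0.0150, limma) and 1.38 (SE 0.35, adjusted p = 0.0312, limma), and in NASH against control it was 0.012.

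Frzb, another decoy, rose by 1.08 in NASH-CH (SE 0.35, adjusted p = 0.0406, limma), from 0.879 ± 0.402 to 1.58 ± 0.442 CPM (mean ± SD, n = 6). Its groups overlapped, and without control rat 6, at 0.179 CPM, the log2 fold change was 0.61 (adjusted p = 0.101, limma), and it missed the threshold in 4 other fits that left out 1 rat. Frzb also missed it by edgeR's quasi-likelihood test (adjusted p = 0.0592). The same held with sample quality weights (adjusted p = 0.0735, limma) and with the 2 groups fitted alone (adjusted p = 0.0955, limma). Notum, an enzyme that removes the lipid of Wnt ligands, was the 1 inhibitor that fell. Control rats had 35.1 to 47.6 CPM, NASH rats 26.6 to 35.6 and NASH-CH rats 13.2 to 35.0, and all 6 NASH-CH rats lay below every control rat, where 3.46% of all tested genes were placed so. It fell by 0.54 (SE 0.18, adjusted p = 0.0489, limma), a call lost in 8 of the 12 fits that left out 1 rat, and by 0.34 without NASH-CH rat 5. The call was also lost by edgeR's quasi-likelihood test (adjusted p = 0.0602) and with library size only (-0.29, adjusted p = 0.216, limma). With the 2 groups fitted alone it was lost too (adjusted p = 0.103, limma).

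**Figure D3:**
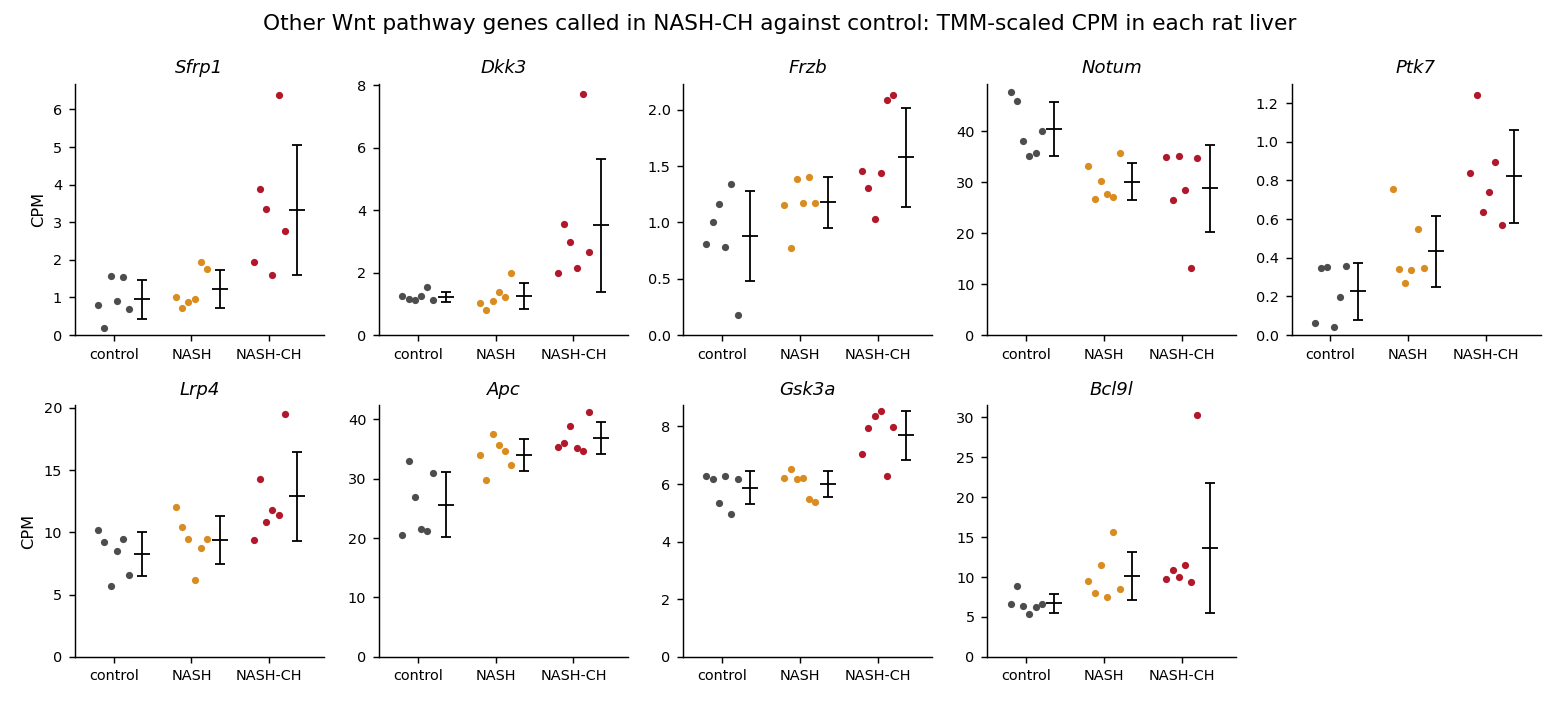
TMM-scaled CPM (vertical axes, each from 0) of the 9 other Wnt pathway genes called in NASH-CH against control, in every rat of the 3 groups, with bars for the mean ± SD of 6 rats. Sfrp1, Dkk3, Ptk7, Apc and Bcl9l lie above every control rat in NASH-CH, Notum lies below, and for Bcl9l the mean is raised by NASH-CH rat 6 at 30.3 CPM.

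Of 12 other receptors, 2 were called in NASH-CH, both higher (16.7%, near the 17% of all genes). Ptk7, a pseudokinase of planar cell polarity, had 0.0413 to 0.359 CPM in control and 0.571 to 1.24 in NASH-CH rats, with no overlap (3.64% of all tested genes lay wholly above). It rose by 1.94 (SE 0.41, adjusted p = 0.00341, limma), on 1 to 10 counts per control rat. The filter on low counts can pass a gene on the NASH-CH rats alone, where Ptk7 was high. Its lack of overlap is therefore not independent of the filter. With at least 10 counts in every sample Ptk7 was not tested. Lrp4, a relative of the co-receptors that binds sclerostin, rose by 0.64 (SE 0.19, adjusted p = 0.0268, limma), its groups overlapped, and the call was lost without control rat 3, control rat 6 or NASH-CH rat 2 (0.53 to 0.59). Within the cell, 3 of 14 tested genes were called in NASH-CH, all higher (21.4%, where 17% of all genes were called). Apc, a scaffold of the complex that destroys beta-catenin, rose in NASH by 0.42 (SE 0.11, adjusted p = 0.0470, limma) and in NASH-CH by 0.54 (SE 0.12, adjusted p = 0.00421, limma), and its call in NASH was lost in 9 of the 12 fits that left out 1 rat. That call was also lost without a filter on low counts and with the 2 groups fitted alone (adjusted p = 0.0711 and 0.0670, limma). Gsk3a, a kinase of the same complex, rose by 0.38 (SE 0.098, adjusted p = 0.0140, limma), and the nuclear co-activator Bcl9l by 0.89 (SE 0.27, adjusted p = 0.0286, limma), which was lost without control rat 1, 3, 4 or 5 (0.82 to 0.89). The Bcl9l call was also lost with the 2 groups fitted alone (adjusted p = 0.0557, limma). Beta-catenin itself, Ctnnb1, named after its values were seen, had means of 100.1 (control), 94.8 (NASH) and 100.6 CPM (NASH-CH, n = 6 each), with log2 fold changes of -0.080 and 0.0047 that did not pass (adjusted p = 0.463 and 0.968, limma). Of the 2 genes of Wnt secretion neither passed, and Porcn, which attaches the lipid, had a log2 fold change of -0.24 in NASH-CH (adjusted p = 0.556, limma).

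Markers of other cell types moved in the same livers. Of 10 stellate cell and myofibroblast markers, 3 were called higher and 1 lower in NASH-CH, Rgs5, Des and Col1a1 against Lrat (40%, where 17% of all genes were called), and 1 higher and 1 lower in NASH (20%, where 3.12% of all genes were called). Their sum was 297 to 408 CPM in control, 280 to 382 in NASH and 314 to 465 in NASH-CH rats. Of 5 tested cholangiocyte markers 0 were called in either model (limma, with 2 at an unadjusted p under 0.05 in NASH-CH), and Spp1, the nearest, had a log2 fold change of 0.87 (adjusted p = 0.0781, limma). Of 8 hepatocyte markers 3 were called lower in NASH-CH, Apoa1, Ttr and Alb (37.5%), and 1 in NASH, Apoa1 (12.5%), with sums of 133350 to 191536 CPM in control and 88866 to 145411 in NASH-CH rats. In NASH, 1 of 7 macrophage markers was called lower, Marco (14.3%), and 0 of 13 endothelial markers were called, where 3.12% of all genes were. The part of these cells in the levels of Sfrp1, Dkk3 and the other genes was not tested.

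Liver targets of beta-catenin and pericentral genes went in both directions. Of 14 tested, 2 were called higher and 1 lower in NASH, and 2 higher and 3 lower in NASH-CH (21.4% and 35.7%, where 3.12% and 17% of all genes were called). With library size only these counts were 2 higher and 0 lower in NASH and 3 higher and 1 lower in NASH-CH. That is 14.3% and 28.6%, where 6.7% and 25.3% of all genes were called, so the NASH-CH share was then near that of all genes. Notum, given above as an inhibitor, is also on this list, and its lower call in NASH-CH is counted in both. Glul, glutamine synthetase and the classical gene of the hepatocytes next to the central vein, stood at 231 to 442 CPM in control rats (median 278), 162 to 282 in NASH (median 207) and 84.0 to 197 in NASH-CH (median 142). All 6 NASH-CH rats lay below every control rat, where 3.46% of all tested genes were placed so, and 5 lay below every NASH rat. Glul fell by 1.13 in NASH-CH (SE 0.19, adjusted p = 0.000655, limma), and in NASH its log2 fold change was -0.48 (SE 0.19, adjusted p = 0.152, limma). Cyp2e1, the cytochrome that activates CCl4, moved the other way. It stood at 539 to 822 CPM in 5 control rats and 1954 in control rat 6, at 1524 to 2843 in NASH and at 1054 to 1983 in NASH-CH rats, with log2 fold changes of 1.32 (SE 0.26, adjusted p = 0.0121, limma) and 0.98 (SE 0.27, adjusted p = 0.0181, limma).

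Lect2, a secreted hepatocyte protein, fell by 0.64 in NASH (SE 0.15, adjusted p = 0.0259, limma) and by 0.69 in NASH-CH (SE 0.15, adjusted p = 0.00470, limma), and Slc1a2, a glutamate transporter, rose by 2.25 in NASH (SE 0.52, adjusted p = 0.0269, limma). Leaving out 1 rat lost the NASH call in 5 of 12 fits for Lect2 and in 7 of 12 for Slc1a2 (adjusted p up to 0.0723 and 0.0687, limma). With library size only Lect2 lost both calls, at -0.41 in NASH (adjusted p = 0.110, limma) and -0.42 in NASH-CH (adjusted p = 0.0578, limma). Slc1a2 in NASH-CH had a log2 fold change of 1.42 (adjusted p = 0.0663, limma). The feedback inhibitor Nkd1 rose by 0.83 in NASH-CH (SE 0.23, adjusted p = 0.0210, limma), from 1.67 ± 0.279 to 3.04 ± 1.01 CPM (mean ± SD, n = 6), and without control rat 4 it missed the threshold (0.75, adjusted p = 0.0590, limma). Nkd1 also missed it with the 2 groups fitted alone (adjusted p = 0.0585, limma). Axin2, the feedback gene most often used as a readout of the pathway, is named after its values were seen. It stood at 2.63 to 3.51 CPM in control rats, at 0.964 to 4.30 in NASH, where 5 of 6 rats lay below every control rat, and at 2.47 to 4.19 in NASH-CH. Its log2 fold changes of -0.71 and 0.14 did not pass (adjusted p = 0.169 and 0.734, limma). Of 9 periportal genes, the opposite end of the lobule, 1 was called lower in NASH, Cyp2f4, and in NASH-CH 1 was called lower, Cyp2f4, and 1 higher, Sds (11.1% and 22.2%, where 3.12% and 17% of all genes were called).

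**Figure D4:**
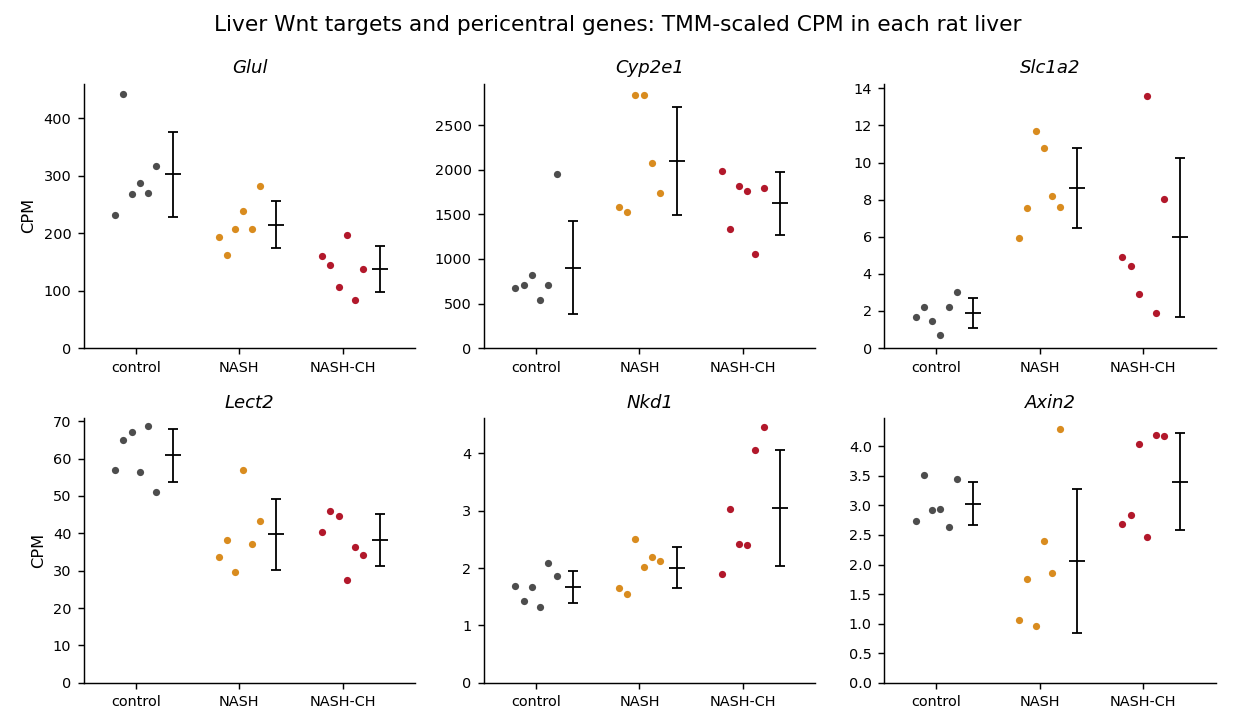
TMM-scaled CPM (vertical axes, each from 0) of 6 liver targets and pericentral genes in every rat of the 3 groups, with bars for the mean ± SD of 6 rats. Glul is lower in NASH-CH than in any control rat, Cyp2e1 lies higher in both models except for control rat 6, and Axin2 is low in 5 of 6 NASH rats.

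The promoters of these target genes are shown because they hold the form CTTTGAT that the members' windows lack, and the motif was chosen after results of these data were seen. Of 11 target promoters found, 6 held CTTTGAT in the 250 bases before the start, Axin2, Nkd1, Sp5, Lect2, Glul and Cyp1a2, against 0 of 8 members and 3.18% of all promoters. This list was chosen to hold known targets of beta-catenin, so its raised share of a TCF/LEF motif is not a result. With 8 promoters, 0 cannot be told apart from 3.18%. The stretches around the match are from chr10:94398623-94398689, plus strand, for Axin2, chr19:34722951-34723017, minus strand, for Nkd1, chr17:8049936-8050002, plus strand, for Lect2, and chr13:68519250-68519306, plus strand, for Glul (GRCr8). Capitals mark CTTTGAT or, on the other strand, ATCAAAG.
Axin2: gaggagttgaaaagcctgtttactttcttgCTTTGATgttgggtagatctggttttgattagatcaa
Nkd1: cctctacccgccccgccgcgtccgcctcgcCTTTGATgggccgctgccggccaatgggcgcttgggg
Lect2: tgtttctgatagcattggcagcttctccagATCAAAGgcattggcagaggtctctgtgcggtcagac
Glul: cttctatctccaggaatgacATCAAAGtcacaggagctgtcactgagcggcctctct
Genes with these letters did not move together in NASH-CH. Lect2 and Glul fell, Nkd1 rose, and Axin2 and Cyp1a2 did not pass (log2 fold changes of 0.14 and 0.18), while Sp5 was below the filter on low counts. A match of letters is a description of the sequence and not of binding.

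**Figure D5:**
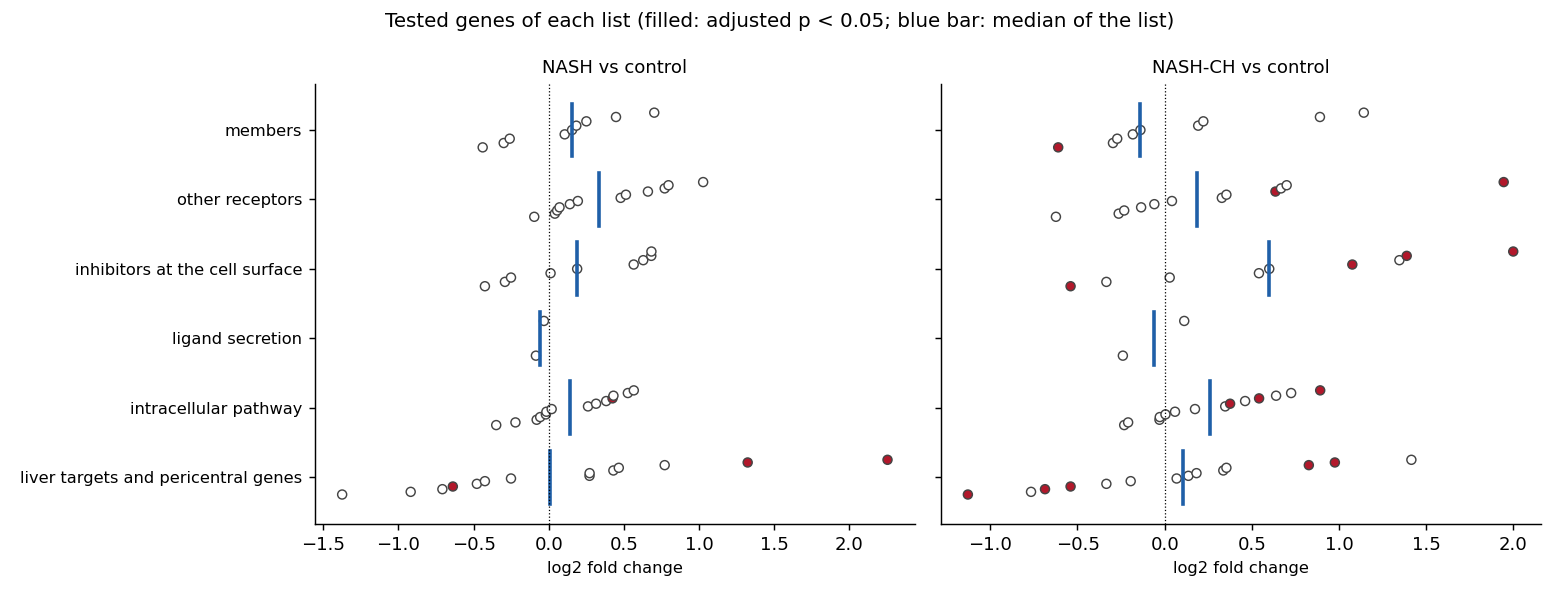
Log2 fold changes (horizontal axes) of every tested gene of the members and of 5 other lists, in NASH and in NASH-CH against control, with filled points for an adjusted p under 0.05 and a blue bar at the median of each list. The median of the 9 members lies at 0.16 in NASH and -0.14 in NASH-CH, and that of the 9 inhibitors in NASH-CH at 0.60.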

How the data were processed

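Liver RNA of 6 control, 6 NASH and 6 NASH-CH rats was analysed as grouped in the labels. Per the study's methods and labels, the authors trimmed reads, aligned them to Rnor_6.0 with STAR, counted reads per Ensembl 95 gene by RSEM and deposited 1 table of expected counts per rat, not normalized. Versions of these tools are not given in the sources used here. As in the study's methods, expected counts were rounded, scaled by TMM (edgeR 4.0.16) and tested with limma-voom (limma 3.58.1 in R 4.3.3). The filter on low counts, filterByExpr, was added here. At the same threshold the study reports fewer genes against control than the 403 (NASH) and 2192 (NASH-CH) called here. The cause of this gap was not tested. DESeq2 1.42.0 and edgeR's quasi-likelihood test were among the alternatives. The code was tested on simulated data. Log2 CPM used a prior count of 2.

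The members and the gene lists were chosen with earlier results of these data known. Named are all 10 members and, from each other list, the called genes, at most 6 by moderated statistic, or else the 1 with the largest statistic. Exceptions are stated beside their values. Names were taken from the tables. Some genes of the lists are not reported here. The labels do not say that same-numbered rats were handled together, and the deviations of same-numbered rats correlated too weakly to pair them (r -0.12 to 0.17 for NASH and 0.027 to 0.12 for NASH-CH against control). Rats of a group differed by more than counting error (smallest chi-square per degree of freedom 28.3), and labels name no shared culture or litter. Totals give counting error only.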

Additional observations from a re-analysis of the deposited data

Results flagged for a closer look

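Among 25 genes (the 10 members and 15 named Wnt pathway or target genes), 75 groups of 6 rats were searched for 1 rat far from the others in log2 CPM, and 8 were found. For normally distributed values chance gives about 1 in 20, a rate that does not hold for counts near 0, as for Wnt11. The gap of that rat to its neighbour, as a share of the range of the group, was 1 for Wnt11 in NASH rat 2, the 1 NASH rat with any count, and 0.843 for Fzd4 in NASH-CH rat 6, at 26.0 CPM. It was 0.821 for Bcl9l in the same NASH-CH rat 6, at 30.3 CPM. For Dkk3 it was 0.646 in control rat 5, at 1.54 CPM. For Frzb it was 0.715 in control rat 6, at 0.179 CPM, and 0.677 in NASH rat 2, at 0.771 CPM. For Notum it was 0.715 in NASH-CH rat 5, at 13.2 CPM, and for Cyp2e1 0.673 in control rat 6, at 1954 CPM.

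The responses of NASH-CH and NASH rats against the shared controls differed for 4 genes of the Wnt pathway and target lists (limma). These are 2 of 37 other pathway genes (5.41%) and 2 of 14 targets and pericentral genes (14.3%), where 4.2% of all genes were called. With library size only, without small non-coding RNA genes or with the 2 groups fitted alone, 0 pathway genes were called. The targets and pericentral genes called were then 2, 2 and 1, where 2.84%, 2.13% and 2.67% of all genes were. The responses differed for 0 of the 9 tested members by limma, for 2 by DESeq2, and for 3 at an unadjusted p under 0.05. NASH-CH rats differed from NASH rats by 1.38 for Dkk3, by 0.36 for Gsk3a (SE 0.095, adjusted p = 0.0400, limma), by 1.71 for Ccnd1, cyclin D1 (SE 0.38, adjusted p = 0.0119, limma), and by -1.23 for Rhbg, an ammonium transporter of pericentral hepatocytes (SE 0.31, adjusted p = 0.0309, limma). Ccnd1 had 14.3 to 46.2 CPM in control, 5.84 to 11.8 in NASH and 15.0 to 93.1 in NASH-CH rats, so every NASH rat lay below every rat of the other groups. Of all tested genes, 1.39% lay wholly lower in NASH than in control, and 1.36% wholly higher in NASH-CH than in NASH. Ccnd1 and Rhbg are named after their values were seen.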

How the results depend on the processing

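A single share in brackets here is that of all genes called with the same setting. The number of members called in NASH-CH against control was 1 (17%). It was 2 with edgeR's quasi-likelihood test (19%), 3 with DESeq2 (22.1%), 2 without a filter on low counts (26.3%) and 2 with at least 10 counts in every sample (17.4%). It was 0 with the 2 groups fitted alone (10.9%) and 0 at an adjusted p under 0.01 (6.58%). Leaving out 1 rat gave 0 to 2 members, where 1519 to 2409 of all genes were called. It gave 0 to 1 in NASH, where 128 to 982 genes were called, and 0 to 1 in NASH-CH against NASH, where 346 to 591 were. DESeq2 gave 2 in NASH-CH against NASH (7.37%). For the other Wnt pathway genes in NASH the count was 1 (3.12%). It was 2 with DESeq2 (9.53%), library size only (6.7%), at least 10 counts in every sample (4.1%) and the 2 groups alone (5.2%). It was 4 with sample quality weights (11.7%), 0 without a filter (1.28%), 0 at 0.01 (0.302%) and 0 to 2 without 1 rat. In NASH-CH the count of these genes was 9 (17%). It was 16 with library size only (25.3%), 15 of 62 tested without a filter (24.2%, where 26.3% of all genes were called), 2 at 0.01 (6.58%) and 6 to 11 without 1 rat. Targets and pericentral genes in NASH, 3, gave 5 with the 2 groups alone (5.2%) and with quality weights (11.7%), 0 at 0.01 (0.302%) and 1 to 4 without 1 rat. In NASH-CH, 5, they gave 3 with the 2 groups alone (10.9%), 2 at 0.01 (6.58%) and 3 to 6 without 1 rat. Over all genes, the share called in NASH ran from 0.302% at 0.01 to 11.7% with quality weights, and in NASH-CH from 6.58% at 0.01 to 26.3% without a filter. The cause of these changes was not tested.

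With the replicate number as a block, 2 members passed in NASH-CH, since Wnt4 (1.17, adjusted p = 0.0285, limma) joined Wnt2, while Frzb in NASH-CH (0.92, adjusted p = 0.0799, limma) and Apc in NASH (0.43, adjusted p = 0.0598, limma) did not pass. The other calls of named Wnt genes against control were kept with the block. Rats that share a number are not known to be related.

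Values that changed sign were all outside the threshold. Library size only gave 0.12 for Fzd1 and 0.069 for Fzd7 in NASH-CH against control, and 0.011 for Lrp5 and 0.0054 for Lrp6 in NASH-CH against NASH, where quality weights gave -0.019 for Fzd4. Without 1 rat, Rspo3 in NASH ran from -0.0092 to 0.18, Fzd1 in NASH-CH against control from -0.31 to 0.093, and between NASH-CH and NASH Fzd4 from -0.13 to 0.11, Lrp5 from -0.11 to 0.090 and Lrp6 from -0.12 to 0.057. For single genes other than the members, these alternatives were chosen after seeing the data. Depth limits Wnt11, which stayed at 0 to 6 counts per rat.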
